A study of Mus musculus with 6 samples.

Results

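The 31 genes described here encode the semaphorins, the plexins and the neuropilins, picked by gene symbol from the 32285 genes of the count matrices with no use of their values. They comprise 7 class 3 semaphorins (*Sema3a* to *Sema3g*), 6 of class 4 (*Sema4a*, *Sema4b*, *Sema4c*, *Sema4d*, *Sema4f*, *Sema4g*), *Sema5a* and *Sema5b*, 4 of class 6 (*Sema6a* to *Sema6d*), *Sema7a*, 9 plexins (*Plxna1* to *Plxna4*, *Plxnb1* to *Plxnb3*, *Plxnc1*, *Plxnd1*) and both neuropilins (*Nrp1*, *Nrp2*). Their RNA was counted in single cells dissociated from autonomic ganglia of mouse pups of both sexes at postnatal day 5. All pups carried a Cre transgene and a tdTomato reporter, and all libraries shared this genotype and age. The 3 sympathetic ganglia (stellate, coeliac, lumbar chain), the parasympathetic sphenopalatine ganglion and the pelvic ganglion were sampled. Whole ganglia were dissociated, so that neurons, glia and stromal cells were all present. There was 1 library of each ganglion except the pelvic ganglion, which had 2 (pelvic_1 and pelvic_2), each library being 1 preparation, so that p-values below measure the spread between these preparations. The stellate, sphenopalatine and pelvic_1 libraries formed round 1 and the coeliac, lumbar and pelvic_2 libraries round 2, with a later version of the chemistry, so that outside the pelvic ganglion round and ganglion cannot be told apart.

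Semaphorins are guidance cues that steer axons, migrating neural crest cells and growing vessels. Class 3 members are secreted, classes 4 to 6 span the membrane and Sema7a is held by a lipid anchor. Plexins are the signalling receptors, and most class 3 semaphorins reach them through a neuropilin that binds the ligand, *Nrp1* for Sema3a and *Nrp2* for Sema3f. Sema3e instead binds plexin D1 directly. Neuropilins also bind members of the VEGF family, so that they serve in vessels as well as in nerves. In the sympathetic system, the Sema3a and neuropilin-1 pair is known to restrain the migration of ganglion precursors and the growth of their axons.

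After filtering, 21442 cells were retained, and the 6 matrices held between 39353313 and 113352559 UMIs (unique molecular identifiers, each standing for 1 captured RNA molecule). Neurons were 7052 cells above a threshold on neuronal markers and below one on glial markers, and the other cells were clustered without the members and named by fixed marker lists. There were 6941 glia-like, 1841 fibroblast-like, 1029 perineurial-like, 698 endothelial-like, 615 mural-like, 533 macrophage-like and 325 chromaffin-like cells, while 1846 cells were left unnamed. The glia-like cells included a cluster led by replication genes and a small one led by interferon genes. Median depth per neuron was between 26651 UMIs in the stellate and 108598 in pelvic_2, and per glia-like cell between 3402 and 11951. Libraries shared between 0 and 49 cell barcodes. Levels below are in CPM, the UMIs of a gene in all cells of a class in a library, divided by all UMIs of these cells and multiplied by 1000000. Since 3′ ends were counted, a molecule counts once whatever its length, yet capture differs between genes, and no order is drawn between genes. Neurons carried the 8 glial markers at a median of 0.866% of their summed level in glia-like cells, and glia-like cells the 8 neuronal markers at 6.19% of their level in neurons (range 3.90 to 17.9%), which sets the scale for RNA carried over between cells.

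Over all cells, between 154 UMIs (*Sema3a*, a ligand of neuropilin-1) and 73178 UMIs (*Plxna4*) were counted for each member. At least 1 UMI was found in at least 5% of neurons (mean over libraries) for 23 of 31 members, and for 12 members after each neuron was thinned to 4000 UMIs. *Sema3b*, which was at a far higher level in glia-like cells, had a UMI in 17.8% of neurons before thinning and in 1.62% after it, and the part of carried-over RNA in such shares was not tested.

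Sequence before the start of transcription is shown for 4 members chosen, after their values were seen, because their levels separated cell types widely. *Plxnb3* (chrX:73756853-73757052, plus strand) and *Sema3g* (chr14:31217623-31217822, plus strand) were far higher in glia-like cells than in neurons, while *Nrp2* (chr1:62703067-62703266, plus strand) and *Plxnc1* (chr10:94944896-94945095, minus strand) differed among neuron types. Each stretch is the 200 bases from 250 to 51 before the RefSeq start in GRCm38.p6, written 5′ to 3′ on the strand of the gene. Capitals mark matches to ACAAAG, the core bound by SOX factors, or to CAGCTG, an E-box.
*Plxnb3*: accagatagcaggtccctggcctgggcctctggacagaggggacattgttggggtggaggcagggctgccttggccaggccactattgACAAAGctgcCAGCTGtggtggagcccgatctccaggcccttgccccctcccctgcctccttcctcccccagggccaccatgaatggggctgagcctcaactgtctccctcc
*Sema3g*: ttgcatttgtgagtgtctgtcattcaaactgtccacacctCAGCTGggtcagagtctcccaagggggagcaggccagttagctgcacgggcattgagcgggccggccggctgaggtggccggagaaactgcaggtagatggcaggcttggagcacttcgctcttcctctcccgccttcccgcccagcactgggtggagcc
*Nrp2*: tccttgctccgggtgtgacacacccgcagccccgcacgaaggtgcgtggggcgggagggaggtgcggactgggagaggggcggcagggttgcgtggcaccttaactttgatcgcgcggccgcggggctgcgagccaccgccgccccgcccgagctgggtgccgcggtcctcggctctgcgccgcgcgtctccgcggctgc
*Plxnc1*: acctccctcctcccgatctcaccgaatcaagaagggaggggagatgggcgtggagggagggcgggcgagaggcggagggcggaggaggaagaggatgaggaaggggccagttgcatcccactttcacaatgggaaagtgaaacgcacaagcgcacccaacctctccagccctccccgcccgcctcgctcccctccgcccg
The stretch of *Plxnb3* held ACAAAG 162 bases and CAGCTG 152 bases before the start, and that of *Sema3g* held CAGCTG 210 bases before it. Those of *Nrp2* and *Plxnc1* held neither, nor the homeodomain core TAATTA. Read on both strands, where CAGCTG and TAATTA are their own reverse complement, ACAAAG was in 13.6% of 32851 such stretches, CAGCTG in 10.3% and TAATTA in 4.19%. Of 37 stretches of 26 members in the RefSeq table, 4 held ACAAAG, 5 CAGCTG and 0 TAATTA.

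Which part of the system neurons carry, and which their glia, was asked first, in sums per library over 6 pairs of neurons and glia-like cells. Neurons had a higher CPM of plexins A3, A4 and C1 and of *Nrp1*, and of the membrane ligands *Sema4d*, *Sema4f*, *Sema4g* and *Sema6c*. In glia-like cells the CPM was higher for the secreted ligands *Sema3b*, *Sema3c*, *Sema3e*, *Sema3f* and *Sema3g*. The same held for *Sema4c*, *Sema6a* and *Sema6d* and for plexins B1, B2, B3 and D1. CPM is a share of the UMIs of a class, and neurons held more UMIs per cell, so amounts per cell can run the other way. *Sema6d*, for example, had 25106 UMIs in 7052 neurons and 5165 in 6941 glia-like cells. In all, 8 members were higher and 12 lower in neurons of 28 tested, by edgeR's quasi-likelihood test with Benjamini-Hochberg adjustment, and *Sema3a*, *Sema3d* and *Sema5b* were too low to test. Across all 13693 genes tested, 37.7% were higher and 35.9% lower (73.6% in either direction), so that being called was common. The median difference of the members was -0.28 on the log2 scale against 0.03 for all genes.

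**Figure D1:**
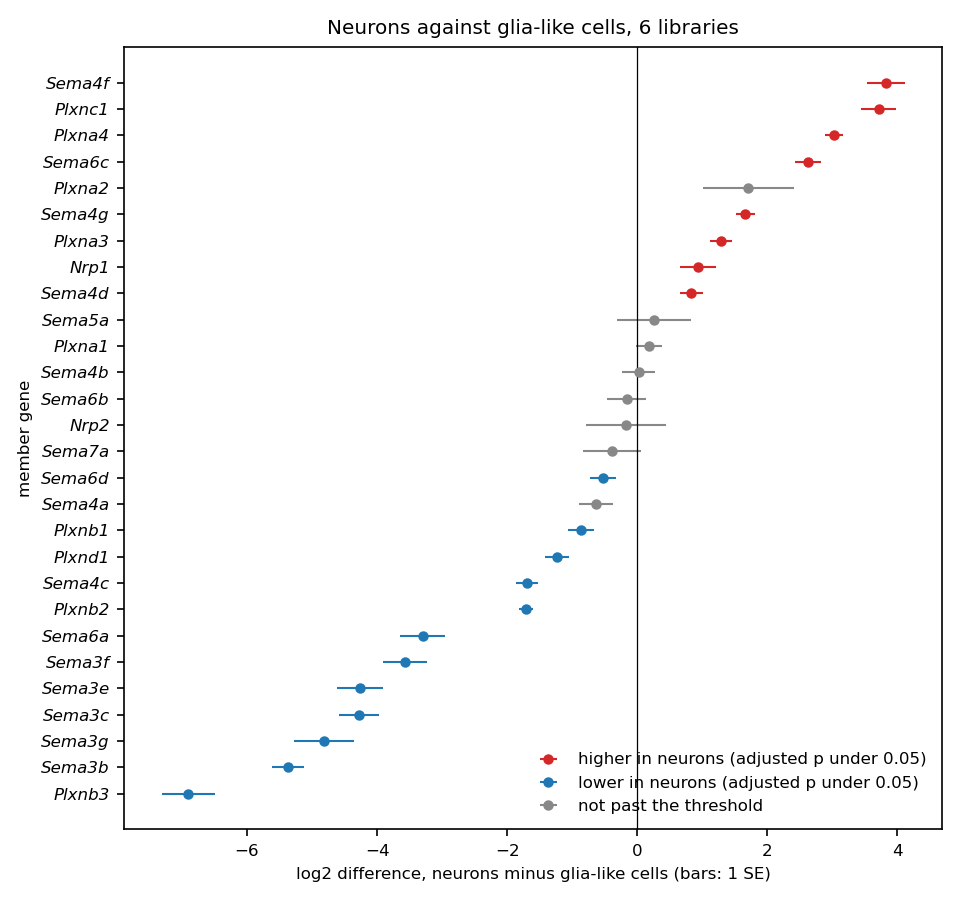
Difference between neurons and glia-like cells of the 28 members tested in 6 libraries, on the log2 scale (x axis), 1 gene per row. Bars are 1 standard error, derived from the F statistic of the test. The 8 members in red were higher in neurons, up to 3.82 for *Sema4f*, the 12 in blue lower, down to -6.91 for *Plxnb3*, and the 8 in grey did not pass the threshold.

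Of the class 3 ligands, *Sema3b* (GRCm38 chromosome 9, 107597674 to 107609229, minus strand) stood at 119 CPM in glia-like cells of the stellate, 255 in the coeliac, 245 in the lumbar, 142 in the sphenopalatine, 166 in pelvic_1 and 256 in pelvic_2. In neurons of the same libraries it lay between 3.15 and 5.62, so that the groups were far apart, and the difference was -5.37 (log2, SE 0.25, adjusted p = 9.5e-07). *Sema3c*, which can bind through both neuropilins, was at 83.4 (sphenopalatine) to 243 (pelvic_2) in glia-like cells and at 1.70 (sphenopalatine) to 13.8 (coeliac) in neurons, a difference of -4.28 (SE 0.30, adjusted p = 4.7e-06). *Sema3g* fell by 4.81, *Sema3e* by 4.26 and *Sema3f* by 3.57 in neurons relative to glia-like cells. The 5 ligands had in neurons a median of 2.26 to 8.07% of their glial level, above the 0.866% of the glial marker list, and the part of carried-over RNA in the neuronal values was not tested. Some of these levels differed with round: *Sema3e* was at 5.94 to 8.10 in glia-like cells of round 1 and at 22.2 to 23.6 in those of round 2, with pelvic_1 at 5.94 and pelvic_2 at 22.2.

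Among the membrane ligands, *Sema4f* stood at 31.4 (coeliac) to 57.6 (sphenopalatine) in neurons and at 1.40 (pelvic_2) to 8.10 (stellate) in glia-like cells, 3.82 higher in neurons (SE 0.29). Its level in glia-like cells was a median 6.48% of that in neurons, near the 6.19% at which the neuronal markers were found there. *Sema6c* was 2.62 higher (SE 0.20), *Sema4g* 1.66 (SE 0.14) and *Sema4d*, a ligand of plexin B1, 0.83 (SE 0.18). In the other direction, *Sema6a*, a ligand of plexins A2 and A4, lay at 28.7 to 81.4 in glia-like cells and 2.07 to 20.1 in neurons, and fell by 3.30 (SE 0.35). *Sema4c*, a ligand of plexin B2, fell by 1.70 (SE 0.17). *Sema6d* was lower by the smallest margin, -0.52 (SE 0.20, adjusted p = 0.040), a call that was lost without the stellate, the sphenopalatine or the pelvic_1 library.

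The plexins split by subfamily in part. *Plxna4* (chromosome 6, 32144268 to 32588192, minus strand), a partner of the neuropilins in the response to Sema3a, was at 155 in stellate neurons, 308 in coeliac, 263 in lumbar, 130.4 in sphenopalatine, 282 in pelvic_1 and 276 in pelvic_2, against 14.6 to 38.5 in glia-like cells. No glial value came near the lowest neuronal one, and the difference was 3.03 (SE 0.14, adjusted p = 9.1e-07). *Plxnc1*, the receptor of Sema7a, was 3.71 higher in neurons (SE 0.27) and *Plxna3* 1.28 (SE 0.17). *Plxnb3*, a receptor of Sema5a whose upstream stretch is shown above, was at 16.7 (stellate), 23.4 (sphenopalatine), 25.6 (pelvic_1), 54.4 (lumbar), 55.8 (pelvic_2) and 58.1 (coeliac) in glia-like cells and never above 0.406 in neurons. The difference was -6.91 (SE 0.41), with all 3 libraries of round 2 above those of round 1 in glia. *Plxnb2* fell by 1.71 (SE 0.11), *Plxnd1* by 1.23 (SE 0.19) and *Plxnb1* by 0.87 (SE 0.20) in neurons relative to glia.

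The neuropilins had no uniform rank between the 2 cell types. *Nrp1* (chromosome 8, 128358604 to 128503363, plus strand) lay at 45.6 to 209 in neurons and 40.1 to 90.0 in glia-like cells, with overlap, and was 0.94 higher in neurons (SE 0.28, adjusted p = 0.014), a call not kept in round 2 alone. *Nrp2* (chromosome 1, 62703285 to 62818695, plus strand) lay at 17.8 to 565 in neurons and 47.2 to 201 in glia-like cells and did not pass the test (-0.18, SE 0.61, adjusted p = 0.80). *Plxna2* did not pass either (1.71, SE 0.70, adjusted p = 0.054), its neuronal values running from 2.32 in the stellate to 54.7 in the sphenopalatine. This outcome for *Plxna2* depended on the setting. It passed by the Wald test of DESeq2, in round 1 alone and without the coeliac or the lumbar library, and not in round 2 alone or without the stellate. For *Nrp2* and *Plxna2* the neurons of the ganglia spanned a wide range. The remaining 6 members tested that did not pass were *Sema4a*, *Sema4b*, *Sema5a*, *Sema6b*, *Sema7a* and *Plxna1*, with differences between -0.63 and 0.25.

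Stromal, vascular, immune and chromaffin-like cells were then each compared with the mean of neurons and glia-like cells, on the log2 scale, in 1 fit over all classes with at least 20 cells in a library. The perineurial-like and chromaffin-like cells reached 20 cells in 4 libraries, the other classes in all 6. The classes share the same neurons and glia-like cells as reference. Members called higher and lower, of 30 tested, were 14 and 12 in endothelial-like cells (37.3 and 32.3% of all 14081 genes, 69.6% in either direction), 14 and 13 in fibroblast-like cells (32.7 and 31.4%, together 64.1%), 12 and 12 in perineurial-like cells (29.1 and 29%, together 58.1%), 8 and 12 in mural-like cells (25.5 and 28.4%, together 54%), 7 and 13 in macrophage-like cells (29.1 and 35.3%, together 64.4%) and 1 and 8 in chromaffin-like cells (14.6 and 15.4%, together 30%). The median differences of the members were, in the same order, -0.10, 0.50, -0.08, -0.76, -1.22 and -0.61 (log2), beside 0.06, 0.00, -0.03, -0.11, -0.18 and -0.08 for all genes. Of the members, *Sema3a* was not tested in this fit.

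**Figure D2:**
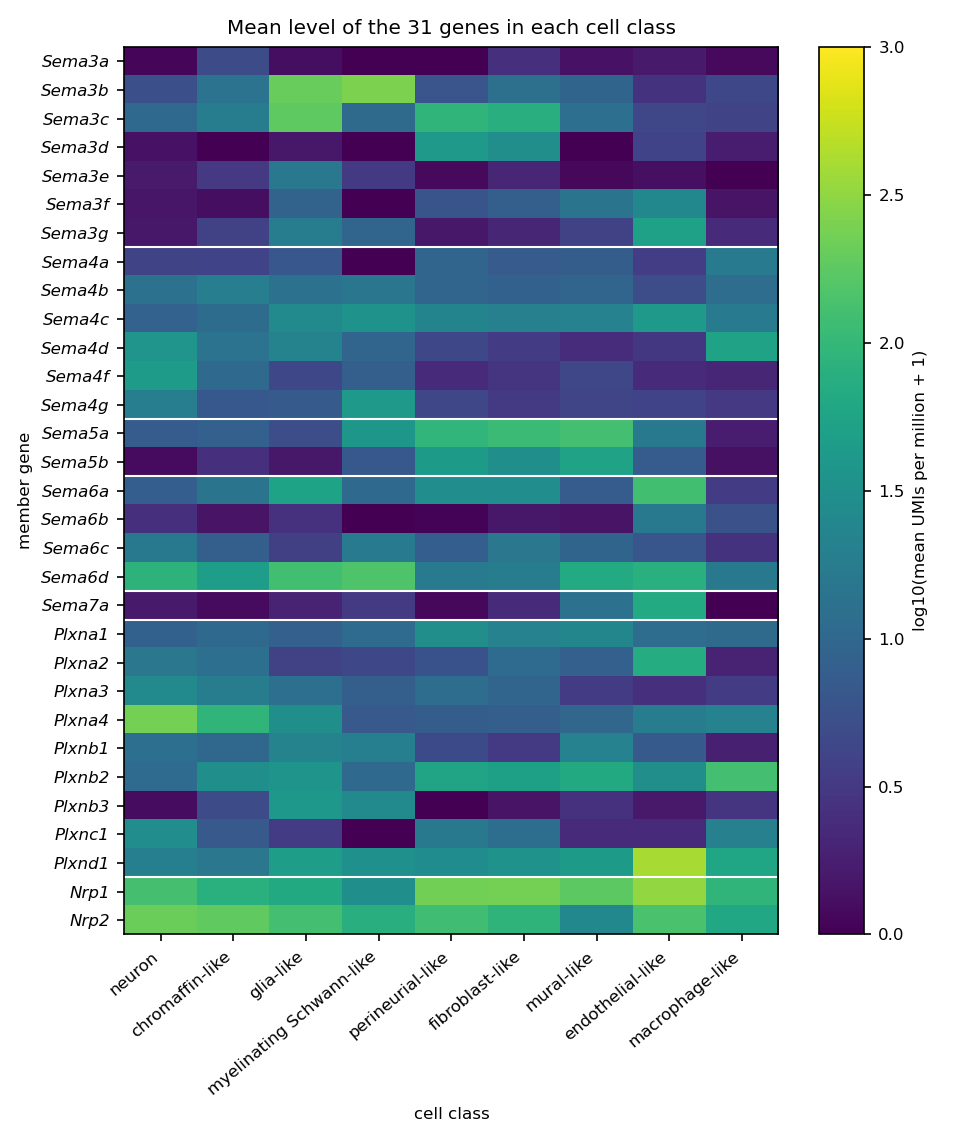
Mean level of the 31 members (rows, with white lines between subfamilies) in 9 cell classes (columns), as the base 10 logarithm of CPM plus 1, averaged over libraries with at least 20 cells of the class. The mean of *Plxnd1* is highest in endothelial-like cells, at 409 CPM, and that of *Plxna4* in neurons, at 236.

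In endothelial-like cells, the receptor *Plxnd1* (chromosome 6, 115954811 to 115995005, minus strand), known for its role in patterning vessels, was at 287 (stellate), 299 (pelvic_1), 326 (sphenopalatine), 455 (pelvic_2), 506 (coeliac) and 581 (lumbar) CPM. Its highest value in any library was 64.2 in glia-like cells and 27.5 in neurons, and the difference was 3.84 (SE 0.19, adjusted p = 4.4e-20). *Plxna2* was at 42.8 to 124 and 3.86 higher (SE 0.35). *Sema7a*, at 41.8 to 88.6, was at 1.42 or lower in every library of neurons and glia-like cells, a difference of 6.58 (SE 0.22). *Nrp1*, a co-receptor for VEGF in vessels, was at 207 to 477 (1.92 higher, SE 0.17), while *Nrp2* did not pass the test (0.05, SE 0.35). The ligands *Sema3f* (3.69, SE 0.26), *Sema3g* (3.92, SE 0.34), *Sema6a* (2.91, SE 0.23) and *Sema6b* (3.46, SE 0.32) were higher as well. The levels of *Sema3g* ranged from 10.4 in the stellate to 95.3 in pelvic_1, with no gap to its glial values of 10.1 to 26.4. Neuronal markers stood in these cells at a median of 3.45% of their level in neurons, and *Plxna4*, *Plxnc1*, *Plxna3*, *Sema4d* and *Sema4f*, which neurons had at higher levels than glia, were all lower here.

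Fibroblast-like, perineurial-like and mural-like cells had class 5 ligands in common. *Sema5a* (chromosome 15, 32244810 to 32696341, plus strand) lay at 53.7 to 210 in fibroblast-like, 60.6 to 149 in perineurial-like and 63.6 to 223 in mural-like cells, against 0.774 to 18.1 in neurons and 2.01 to 6.38 in glia-like cells. It was higher by 4.66 (SE 0.31), 4.65 (SE 0.35) and 4.61 (SE 0.34) in the 3 classes. *Sema5b* was at 14.6 to 63.7, 23.9 to 66.5 and 23.1 to 98.5, and below 1 in every library of neurons and glia-like cells, with differences of 6.34 (SE 0.31), 7.08 (SE 0.33) and 6.90 (SE 0.34). *Sema3d*, a secreted ligand, separated these classes: it was at 2.83 (stellate) to 45.4 (pelvic_2) in fibroblast-like and 17.6 (pelvic_1) to 59.7 (stellate) in perineurial-like cells, 6.01 (SE 0.46) and 6.72 (SE 0.52) higher. In mural-like cells 0 UMIs of *Sema3d* were counted in all libraries together, which allows at most 0.691 CPM by counting error, at least 44.9-fold lower than the 31.03 of all fibroblast-like cells. *Plxnb3*, the plexin seen in glia, had 0 UMIs in perineurial-like cells, which allows 0.258 CPM and is at least 152-fold lower than the 39.4 of glia-like cells.

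Perineurial-like and fibroblast-like cells also had *Sema3c*, at 74.9 to 122 and 18.4 to 113, higher by 1.62 (SE 0.30) and 1.05 (SE 0.26) than the mean of neurons and glia, while mural-like cells were lower (-1.96, SE 0.43). Over all libraries pooled, *Sema3c* was at 94.4 in perineurial-like and 77.8 in fibroblast-like cells, above the 8.70 of neurons and below the 180 of glia-like cells. *Plxnb2* was higher in fibroblast-like (1.56, SE 0.11), perineurial-like (1.77, SE 0.13) and mural-like cells (1.77, SE 0.13), as was *Plxna1* (1.59, 2.27 and 1.72, SE 0.19 to 0.23). *Nrp1* was higher in the same 3 classes (1.54, 1.67 and 0.85, SE 0.17 to 0.19). The second neuropilin differed: *Nrp2* fell by 2.56 (SE 0.49, adjusted p = 2.9e-05) in mural-like cells, at 12.3 to 53.5, and did not pass in the other 2 (-0.42, SE 0.36, and 0.03, SE 0.43). *Sema7a* was 3.89 higher in mural-like cells (SE 0.35). The 6 fibroblast markers summed to 26166 to 49824 CPM in perineurial-like cells and to 39407 to 64395 in fibroblast-like cells, so that the values of these classes may hold RNA of both, and its part was not tested.

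**Figure D3:**
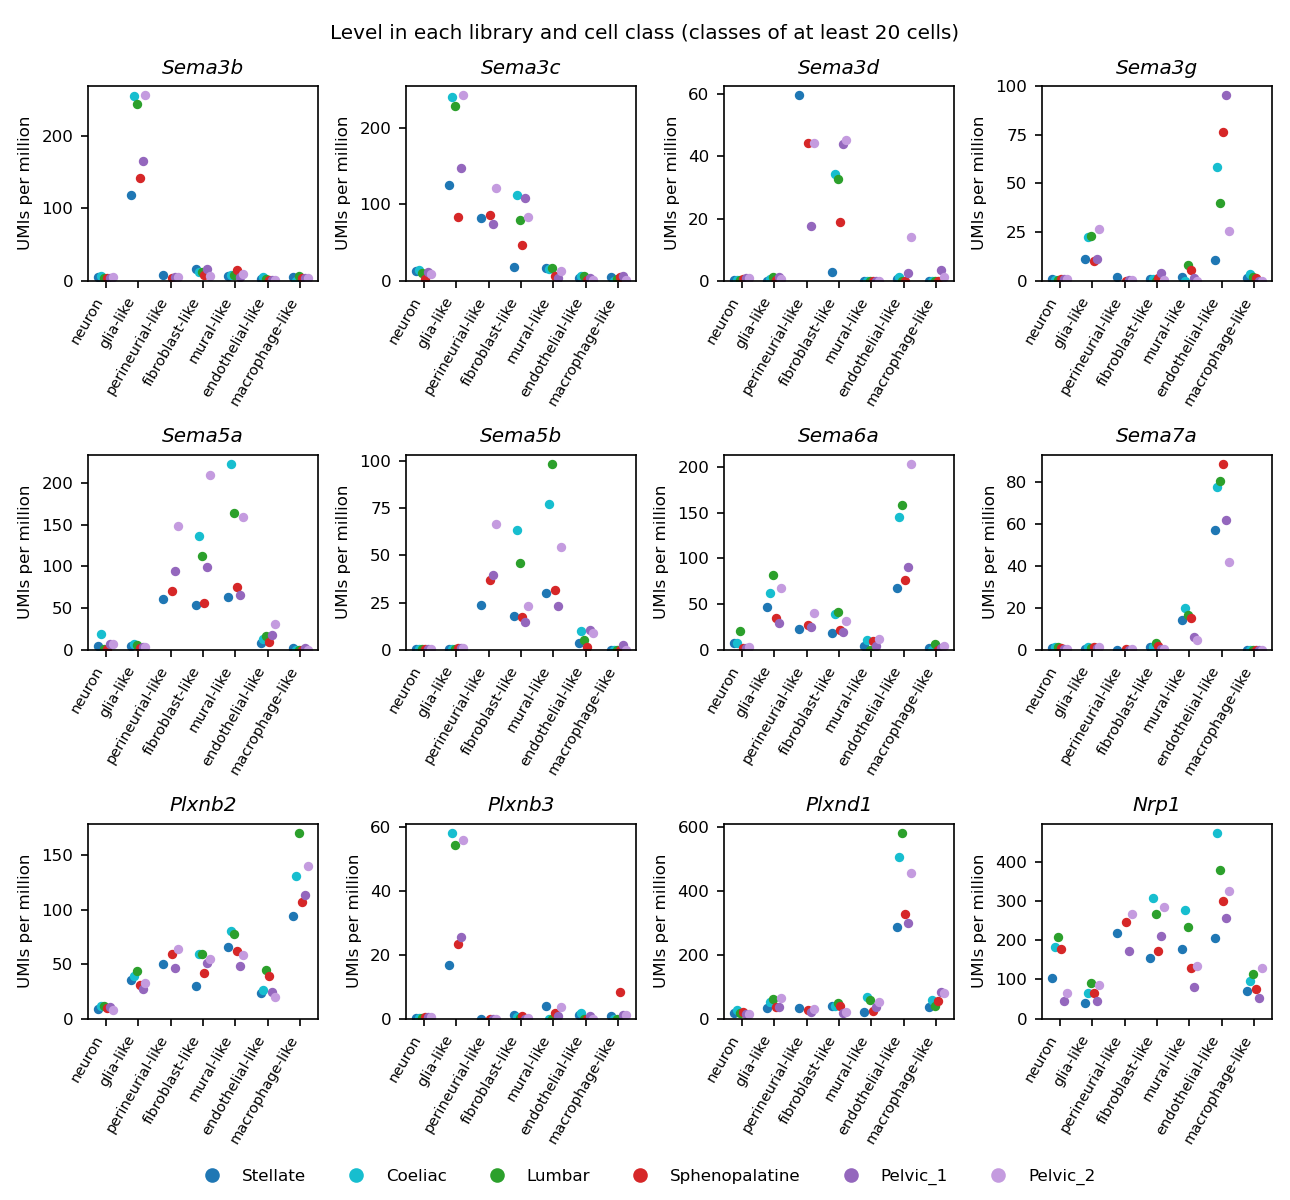
Level in CPM (y axis) of 12 members in 7 cell classes (x axis), 1 point per library of at least 20 cells, coloured by library. Of these 7 classes, *Sema3b* and *Plxnb3* are highest in glia-like cells, *Sema5a* and *Sema5b* in perineurial-like, fibroblast-like and mural-like cells, *Sema7a* and *Plxnd1* in endothelial-like cells, and *Plxnb2* is highest in macrophage-like cells, at 94.5 to 170.5.

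Macrophage-like cells had *Plxnb2* at 94.5 (stellate), 107 (sphenopalatine), 113 (pelvic_1), 131 (coeliac), 139.9 (pelvic_2) and 170.5 (lumbar). These values were above those of neurons, glia-like cells and the other classes compared here, in every library of at least 20 cells. *Plxnb2* was 3.01 higher than the mean of neurons and glia (SE 0.12, adjusted p = 3.3e-23). *Sema4a* (2.16, SE 0.38) and *Sema4d* (1.08, SE 0.24), both known for immune roles, and the receptors *Plxnc1* (1.69, SE 0.32) and *Plxnd1* (1.33, SE 0.21) were higher than this mean too. Over all libraries pooled, *Plxnc1* was above the 2.59 of glia-like cells and below the 27.6 of neurons, at 18.2 in macrophage-like cells. No UMI of *Sema3e* or *Sema7a* was counted in these cells, which allows 0.634 CPM of each. That is at least 24.2-fold lower than *Sema3e* in glia-like cells and at least 102-fold lower than *Sema7a* in endothelial-like cells. Chromaffin-like cells carried neuronal markers at a median of 30.8% of the neuronal level. Only *Plxnb2* was called higher in them (0.61, SE 0.17), at 31.7 over all libraries pooled, below the 35.4 of glia-like cells. Called lower than this mean were *Sema3b*, *Sema3c*, *Sema3f*, *Sema4d*, *Sema4g*, *Sema6d*, *Plxnb1* and *Plxnd1*. Over all libraries pooled, *Sema3b* (15.0) and *Sema3c* (20.5) were above neurons (4.29 and 8.70) and below glia-like cells (198 and 180). *Sema3f* rested on 2 UMIs, and the other members called lower were below both. The count of 9 calls in chromaffin-like cells rested in part on pelvic_2, without which 5 members were called. *Nrp2* was at 81.3 to 299.9 in chromaffin-like cells and *Plxna4* at 24.1 to 184, the latter with both pelvic libraries (32.6 and 24.1) under the stellate (123) and the coeliac (184).

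Within the pelvic ganglion, neurons were clustered without the members and 5 clusters were named from markers that the study lists for its types P1 to P4. Neurons of P3-like type (131 in pelvic_1 and 33 in pelvic_2) were led by *Th* and *Dbh*, genes of noradrenaline synthesis. The P2-like cluster (254 and 97) was led by *Grp* and the P4-like cluster (58 and 32) by *Calca* and *Aldh1a2*. P1 markers were spread over 2 clusters, one led by *Cartpt* (208 and 108) and one with *Gng8* among its leading genes (149 and 84), in which these markers were on average 0.97 and 0.71 higher (log2) than in other pelvic neurons and not among the 10 leading genes, so that both are called here by their own leading genes. A sixth cluster of 104 neurons, led by haemoglobin and collagen genes, was left out. Each cluster was compared with the mean of the other 4, with library as a block. As the clusters came from other genes of the same cells, the p-values speak of how alike the 2 libraries were and not of whether the clusters are distinct types. The numbers of members higher and lower, of 24 tested, were 2 and 4 in the *Cartpt* cluster (8.13 and 5.14% of all 13377 genes, 13.3% in either direction), 3 and 7 in the *Gng8* cluster (7.98 and 5.72%, together 13.7%), 7 and 4 in P2-like (13.4 and 10.5%, together 23.9%), 9 and 4 in P3-like (13.3 and 12.3%, together 25.6%) and 6 and 5 in P4-like neurons (15.1 and 12%, together 27.2%). Their medians were -0.28, -0.16, 0.11, 0.19 and 0.13, beside values between -0.01 and 0.01 for all genes. *Sema3a*, *Sema3f*, *Sema3g*, *Sema5b*, *Sema6b*, *Sema7a* and *Plxnb3* were too low to test. *Sema3d* and *Sema3e* passed the filter on low counts only through P3-like neurons, where both are among the members counted as higher. The 5 contrasts share their samples.

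Both neuropilins differed between the pelvic clusters. *Nrp2* was at 1005 and 923 CPM (pelvic_1 and pelvic_2) in P2-like neurons, 546 and 512 in the *Gng8* cluster, 412 and 494 in P4-like neurons, 123 and 172 in the *Cartpt* cluster and 70.8 and 89.2 in P3-like neurons. The order was the same in both libraries, and no value of one cluster overlapped with the next. P2-like neurons were 2.11 higher (log2, SE 0.09, adjusted p = 3.8e-13), the *Gng8* cluster 1.01 (SE 0.09) and P4-like neurons 0.63 (SE 0.10), while the *Cartpt* cluster fell by 1.28 (SE 0.11) and P3-like neurons by 2.47 (SE 0.13, adjusted p = 2.4e-12). *Nrp1* had another order. It was at 104 and 143 in the *Cartpt* cluster, 58.0 and 57.3 in the *Gng8* cluster, 54.2 and 72.8 in P3-like neurons, 14.0 and 12.3 in P4-like and 4.85 and 6.33 in P2-like neurons. Here the *Gng8* and P3-like clusters overlapped, and the others did not. The *Cartpt* cluster was 2.49 higher (SE 0.10, adjusted p = 5.0e-13), P3-like 1.20 (SE 0.12) and the *Gng8* cluster 1.10 (SE 0.11), and P4-like neurons fell by 1.68 (SE 0.17) and P2-like by 3.11 (SE 0.16, adjusted p = 4.9e-12). The cluster with the most *Nrp2* thus had the least *Nrp1* in both libraries.

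**Figure D4:**
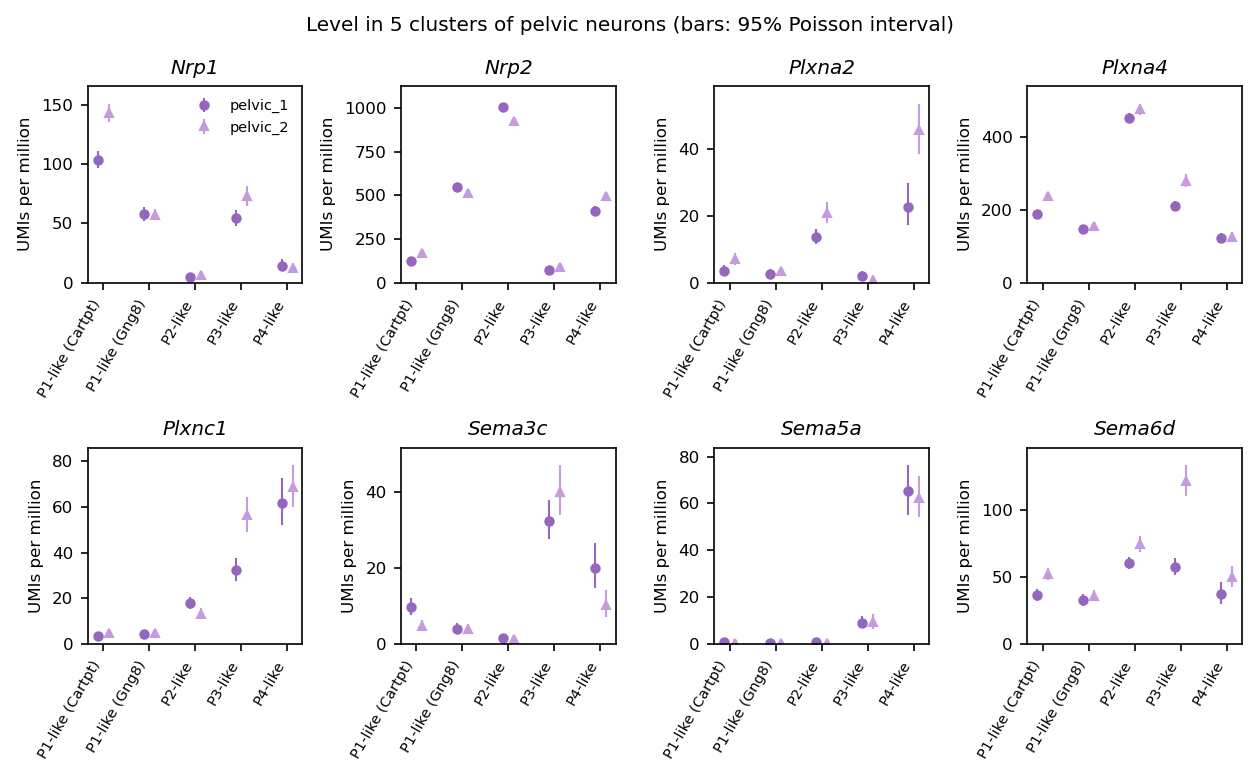
Level in CPM (y axis) of 8 members in 5 clusters of pelvic neurons (x axis), with circles for pelvic_1, triangles for pelvic_2 and bars of the 95% Poisson interval, which covers counting error only. *Nrp2* is highest in P2-like neurons (1005 and 923) and lowest in P3-like neurons (70.8 and 89.2). *Sema5a* is highest in P4-like neurons (65.1 and 62.3), followed by P3-like neurons (9.07 and 9.27).

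Of the plexins, *Plxna4* was at 454 and 477 in P2-like neurons, above the 123 to 281 of the other clusters, and 1.43 higher there (SE 0.08, adjusted p = 1.6e-11). It was lower in P4-like neurons (-1.06, SE 0.10) and in the *Gng8* cluster (-0.59, SE 0.09). *Plxna2* was highest in P4-like neurons, at 22.8 and 45.7 (2.85 higher, SE 0.20), followed by P2-like neurons at 13.8 and 20.9 (1.74, SE 0.18), and lowest in P3-like neurons, at 1.93 and 0.794, of which the second rests on 3 UMIs (-2.73, SE 0.34). *Plxnc1* was at 61.7 and 68.5 in P4-like and 32.2 and 56.4 in P3-like neurons and at 3.48 to 18.0 elsewhere, with differences of 2.52 (SE 0.16) and 1.82 (SE 0.16). It fell by 2.28 (SE 0.21) in the *Cartpt* and 2.15 (SE 0.21) in the *Gng8* cluster. *Plxnd1* was 1.16 higher in the *Gng8* cluster (SE 0.15) and lower in P3-like (-0.72, SE 0.21) and P4-like neurons (-0.76, SE 0.24). *Plxna3* rose by 0.56 (SE 0.12) in P2-like neurons and fell by 0.83 (SE 0.18) in P4-like neurons.

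Several ligands were higher in P3-like or P4-like neurons. *Sema5a* was at 65.1 and 62.3 in P4-like neurons, 9.07 and 9.27 in P3-like neurons and at most 1.03 in the other 3 clusters. P4-like neurons were 5.58 higher (SE 0.17, adjusted p = 2.2e-15) and P3-like neurons 2.11 (SE 0.24). *Sema3c* was at 32.4 and 40.0 in P3-like neurons (2.82 higher, SE 0.19) and 19.9 and 10.2 in P4-like neurons (1.14, SE 0.26), and at 1.41 to 9.66 elsewhere. *Sema3d* (4.61, SE 0.55) and *Sema3e* (4.16, SE 0.78) were higher in P3-like neurons at low levels, 4.25 and 3.71 for *Sema3d* and 1.74 and 2.38 for *Sema3e*, the latter on 9 UMIs in each library. Both passed the filter on low counts only through P3-like neurons, so that a call as higher there was favoured by the filter. *Sema4b* (1.32, SE 0.18), *Sema6d* (0.87, SE 0.12) and *Sema3b* (0.79, SE 0.28) completed the ligands higher in P3-like neurons, and *Sema6a* (2.63, SE 0.39) was higher in P4-like neurons. P2-like neurons were lower in *Sema3c* (-2.78, SE 0.29), *Sema5a* (-2.40, SE 0.35) and *Sema6a* (-2.57, SE 0.52). *Sema4f* was lower in the *Cartpt* cluster (-0.34, SE 0.11), where *Plxnb1* was higher (0.62, SE 0.14). By the Wald test of DESeq2, both of these calls, *Sema3b* and *Plxnd1* in P3-like, *Sema6c* and *Plxna1* in P2-like, *Sema6c* and *Plxnd1* in P4-like neurons and *Sema4b* in the *Gng8* cluster were lost.

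Whether pelvic neurons resemble those of sympathetic ganglia was addressed for the members with the sums of all neurons in both pelvic libraries and the stellate, coeliac and lumbar libraries, with round as a term. *Nrp2*, *Plxna2* and *Sema3d* were higher in pelvic neurons, and *Nrp1*, *Plxnc1*, *Sema4b*, *Sema6a*, *Sema6d* and *Sema7a* lower, 3 and 6 of 29 tested, where 10.3 and 8.23% of all 15715 genes were (18.5% in either direction). The median of the members was -0.28 (log2) and that of all genes -0.02. *Sema3a* and *Sema5b* were not tested. Each sympathetic ganglion was 1 library, so the spread includes that between ganglia.

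*Nrp2* was at 565 and 492 CPM in the pelvic libraries, against 39.5 in stellate, 73.2 in coeliac and 65.2 in lumbar neurons, 3.27 higher (log2, SE 0.21, adjusted p = 0.00017). The ranges were far apart within each round, 565 against 39.5 in round 1 and 492 against 65.2 and 73.2 in round 2. *Nrp1* was at 45.6 and 65.3 in the pelvic ganglion and at 104, 184 and 209 in the sympathetic ganglia, and fell by 1.42 (SE 0.15, adjusted p = 0.0011). *Plxnc1* was at 17.4 and 18.3 against 34.6, 45.9 and 44.2 (-1.17, SE 0.13, adjusted p = 0.0013). These 3 genes were called also when any 1 library was left out or when round was not a term. The other 6 were lost without a term for round, and also without the stellate or pelvic_2, when 3 members were called in all, and 5 of them without pelvic_1. *Sema3d* and *Sema7a* were low, at 0.82 and 0.33 in pelvic_1 (30 and 12 UMIs) and 0.21 and 0.59 in the stellate. Both calls were lost by the Wald test of DESeq2, and *Sema7a* also without neuron clusters led by glial or fibroblast genes. *Sema3d* passed the filter on low counts only with its pelvic counts. *Plxna2* was at 8.20 and 12.6 against 2.32, 6.01 and 3.30 (1.63, SE 0.25), *Sema6d* at 49.4 and 61.2 against 61.8, 165 and 124 (-0.84, SE 0.22) and *Sema6a* at 2.07 and 2.57 against 7.12, 6.90 and 20.1 (-2.16, SE 0.47). *Plxna4*, at 276 and 282 against 155 to 308, did not pass (0.34, SE 0.20).

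**Figure D5:**
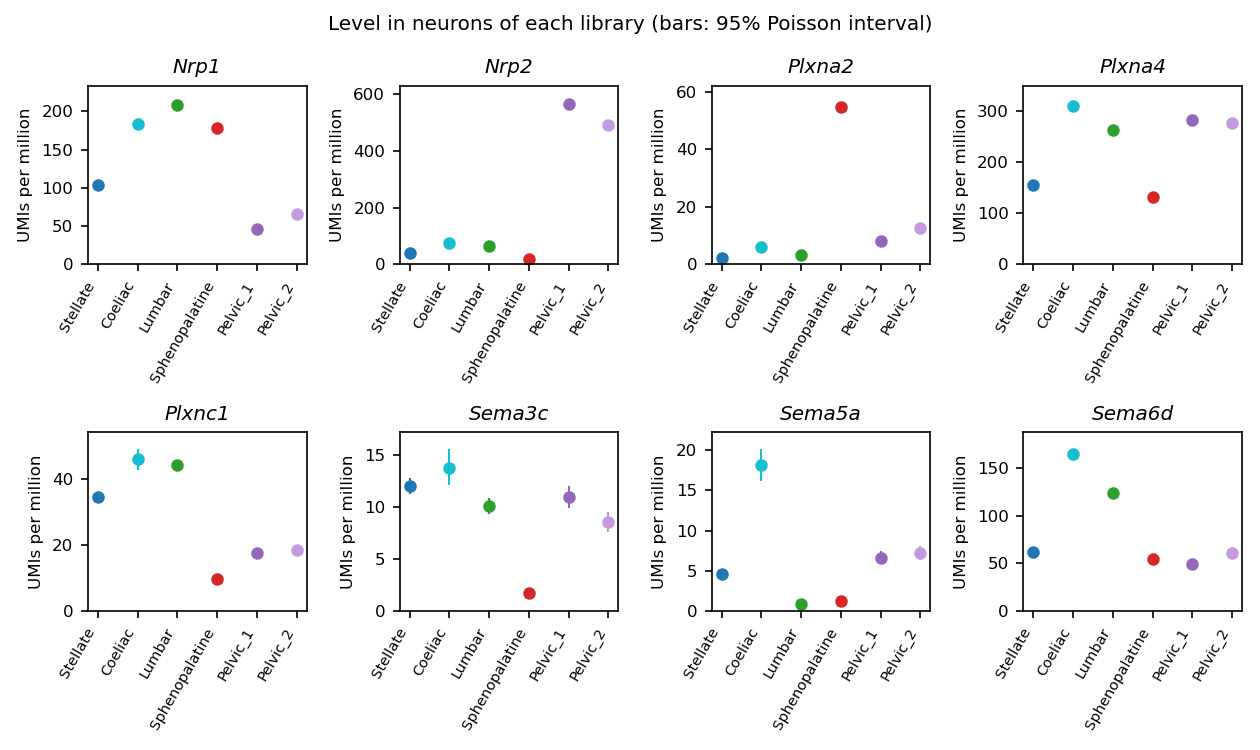
Level in CPM (y axis) of 8 members in the neurons of each library (x axis), with bars of the 95% Poisson interval, which covers counting error only and is often smaller than the point. *Nrp2* stands at 565 and 492 in the pelvic libraries and at 73.2 or less in all others, and *Plxna2* at 54.7 in the sphenopalatine and at 12.6 or less in all others.

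The part of cell composition in these differences was not tested. The noradrenergic P3-like neurons were few among the pelvic neurons summed here. Compared alone with all sympathetic neurons, they had *Nrp2* at 70.8 and 89.2, a difference of 0.56 (SE 0.14, adjusted p = 0.080) that did not pass the test. Their *Plxnc1* level did not differ detectably either (0.12, SE 0.12, adjusted p = 0.61). *Nrp1* remained lower (-1.23, SE 0.16, adjusted p = 0.016), *Plxnd1* was lower (-1.39, SE 0.26), and *Sema3c* (1.60, SE 0.17) and *Sema3d* (4.21, SE 0.45) were higher. Here too *Sema3d* passed the filter only with its pelvic counts, which favoured a call as higher. *Plxna2* (-1.23, SE 0.63, adjusted p = 0.31) and *Sema4b* (0.29, SE 0.12, adjusted p = 0.23) did not pass and were opposite in sign to the comparison of all pelvic neurons. In all, 4 members were called with P3-like neurons alone, where 6.38% of 14321 genes were, and 9 with all pelvic neurons. The difference between neurons and glia-like cells itself was larger in the pelvic than in the sympathetic ganglia for *Plxna2* and *Nrp2* and smaller for *Nrp1*, the 3 members called in a test of this difference, in which 1.31% of 13775 genes were. *Plxna2* was 3.12 higher in neurons than in glia-like cells of the pelvic libraries and 0.04 higher in the sympathetic ones.

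Sphenopalatine neurons, the only parasympathetic ones, were set beside the stellate and pelvic_1 neurons of the same round, with no test as there was 1 library. A member was counted as apart when over 2-fold above the higher or below the lower of the others. *Plxna2* (chromosome 1, 194618218 to 194816869, plus strand) was apart on the high side, at 54.7 CPM (4157 UMIs) against 2.32 in the stellate and 8.20 in pelvic_1, 6.67-fold over the higher. It reached the minimum of 10 CPM only in the sphenopalatine, so that it could not have been counted on the low side. *Sema3c* (1.70 against 12.04 and 10.9) and *Nrp2* (17.8 against 39.5 and 565) were apart on the low side, 6.44-fold and 2.21-fold under the lower. With the alternative limit of 3-fold, *Nrp2* was no longer apart, while *Plxna2* and *Sema3c* still were. Of the rest, 13 members lay within these limits and 15 below the minimum of 10 CPM in any of the 3 libraries. Among those left uncounted by this minimum were *Sema6b*, 3.49-fold over the higher, and *Sema5a*, 3.75-fold under the lower. Of 8880 genes that reached the minimum, 2.34% were apart on the high and 2.11% on the low side. *Plxna2* was also above the coeliac (6.01) and lumbar (3.30) neurons of the other round, and *Nrp1*, at 178, lay between the lumbar and the stellate values. The sum of all pelvic_1 neurons covers clusters that differed. In pelvic_1, *Plxna2* ran from 1.93 in P3-like to 22.8 in P4-like neurons, which had it at 45.7 in pelvic_2. *Sema3c* ran from 1.71 in P2-like to 32.4 in P3-like neurons of pelvic_1, so that P2-like neurons were near the 1.70 of the sphenopalatine.

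Thinned to 4000 UMIs each, 66.3% of pelvic_1 and 68.8% of pelvic_2 neurons had a UMI of *Nrp2*, against 14.7% in the stellate, 31.9% in the coeliac, 25.9% in the lumbar and 6.55% in the sphenopalatine library. Unthinned, these shares were 90.8, 91.2, 53.3, 86.1, 81.4 and 34.3% in the same order, which follows depth in part. Glia-like cells, which had *Nrp2* too, gave no background level.

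Genes that act with the members were followed in a list of 40 signalling partners and effectors. Between neurons and glia-like cells, 14 were higher in neurons and 13 lower of 35 tested, beside 37.7 and 35.9% of all genes. Among these were *Dpysl3* (3.61, SE 0.29) and *Dpysl2* (2.24, SE 0.12), which encode collapsin response mediator proteins that relay Sema3a signals, *Gsk3b* (1.58, SE 0.09), a kinase that phosphorylates them, and *Rhoa* (-1.57, SE 0.11), a small GTPase. Between pelvic and sympathetic neurons, 3 were higher and 4 lower of 37 (10.3 and 8.23% of all genes), among them *Rras* (0.61, SE 0.17), a GTPase on which plexins act, *Fyn* (-0.75, SE 0.12), a kinase bound to plexin A complexes, *Chl1* (-0.55, SE 0.13), an adhesion molecule that associates with neuropilin-1, and *Itga1* (-1.60, SE 0.33), the integrin subunit that pairs with the Sema7a receptor integrin beta 1. In P4-like neurons 5 were higher and 11 lower of 33 (15.1 and 12% of all genes), with *Dpysl3* (-0.89, SE 0.08), *Crmp1* (-0.75, SE 0.09), *Dpysl5* (-0.34, SE 0.10) and *Gsk3b* (-0.26, SE 0.08) lower. In P3-like neurons 10 were higher and 7 lower (13.3 and 12.3%), *Dpysl3* (0.55, SE 0.08) and *Crmp1* (0.42, SE 0.08) higher and *L1cam* (-0.33, SE 0.09) and *Rac1* (-0.28, SE 0.09) lower. In the P2-like cluster 6 were higher and 3 lower (13.4 and 10.5%), in the *Cartpt* cluster 3 and 3 (8.13 and 5.14%) and in the *Gng8* cluster 6 and 2 (7.98 and 5.72%). *L1cam*, a partner of neuropilin-1, was 0.55 higher (SE 0.08) in P2-like neurons, which had the least *Nrp1*. Among the other classes, of 39 tested, 15 and 15 were higher and lower in endothelial-like (37.3 and 32.3% of all genes), 13 and 14 in fibroblast-like (32.7 and 31.4%), 12 and 13 in perineurial-like (29.1 and 29%), 13 and 14 in mural-like (25.5 and 28.4%), 8 and 24 in macrophage-like (29.1 and 35.3%) and 3 and 17 in chromaffin-like cells (14.6 and 15.4%). *Dpysl3* was lower than the mean of neurons and glia-like cells in all 6 of these classes, from -1.02 in chromaffin-like to -2.88 in macrophage-like cells. That mean lies well above glia-like cells, as *Dpysl3* was 3.61 higher in neurons. In the sphenopalatine only *Itga1* of this list was apart, at 1.63 CPM against 59.7 and 18.97, 11.6-fold under the lower.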

How the data were processed

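UMI counts per gene and droplet were made by the authors with Cell Ranger 6.0.1 (genome mm10 per the submitters' processing notes) and deposited without normalization, as 1 matrix per library. The cells kept had more than 1500 but fewer than 11000 genes, with less than 15% of UMIs from mitochondrial genes. Counts were normalized with sctransform 0.4.2 (Seurat 5.3.0, R 4.3.3), and a cell was taken as a neuron when its neuronal markers averaged over 3, as in the study, and its glial markers under 1.15. The other 14164 cells were clustered by Louvain (python-igraph 0.11.9, scikit-learn 1.9.0, 3000 variable genes, 50 components, 20 neighbours, resolution 1), and pelvic neurons at resolution 0.3. The members and the 40 signalling genes were left out of the genes clustered, but the clusters come from other genes of the same cells. The 226 cells with both kinds of markers were set aside, and doublets were removed only as an alternative (the 5% with the highest Scrublet scores, scanpy 1.11.5). UMI counts were summed per library and class of at least 20 cells (10 for pelvic clusters) and tested with edgeR 4.0.16 (quasi-likelihood test, TMM, filterByExpr, threshold 0.05 after Benjamini-Hochberg adjustment over all genes tested), with library as a block, or with round as a term between ganglia. Neurons and glia-like cells with the same library come from the same preparation, and this sets the pairing. Each SE given with a log2 difference is the size of that difference divided by the square root of the F statistic of the edgeR test. On simulated counts for the neuron and glia comparison, the test recovered 79.6% of genes changed by 1 (log2) and 100% of those changed by 2. Between pelvic and sympathetic neurons it recovered 69.7% and 99.0%. Recovery for members whose neuronal levels varied widely between libraries, such as *Plxna2* and *Nrp2*, was not tested. Alternatives were DESeq2 1.42.0, no filter on low counts, other selections of neurons and glia, 1 round only and each library left out. Neurons without clusters led by glial or fibroblast genes were an alternative added after the data were seen.

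The members and all gene lists were chosen with earlier results of these data known. All 31 members were looked up in each comparison and those called are counted. For the further cell classes and the pelvic clusters, not all called members are named. In each contrast, adjusted p-values are given for at most 8 called members, those with the highest mean CPM, and of the signalling list the 4 called genes with the highest mean CPM are named. Upstream sequences come from RefSeq (GRCm38.p6) and were searched for 3 motifs. Intervals and limits at 95% and at 3 counts cover counting error only. In situ hybridization and tracing were not analysed here. The promoter that drives Cre in these mice is not reported here.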

Additional observations from a re-analysis of the deposited data

Results flagged for a closer look

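The difference between neurons and glia-like cells of the same library was itself compared between the 2 pelvic and the 3 sympathetic libraries, by edgeR's quasi-likelihood test of the interaction with library as a block, and differed for 3 members. For *Plxna2* the pelvic difference exceeded the sympathetic one by 3.08 on the log2 scale (SE 0.43, adjusted p = 0.022), with 3.12 in the pelvic and 0.04 in the sympathetic libraries. For *Nrp2* it exceeded it by 2.81 (SE 0.44, adjusted p = 0.033), with neurons above glia-like cells in the pelvic libraries (1.95) and below them in the sympathetic ones (-0.86). For *Nrp1* the pelvic difference was lower, by -1.54 (SE 0.24, adjusted p = 0.030), with -0.12 in the pelvic and 1.42 in the sympathetic libraries. These differences depend on the levels in glia-like cells as well as in neurons, and the part of each was not tested. Glia-like cells of both pelvic libraries had *Nrp2* at 105 and 201 CPM, within the sympathetic range of 47.2 to 174 in pelvic_1 and above it in pelvic_2.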

How the results depend on the processing

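Of 206 calls of single members, 1939 repeats under alternatives kept direction and side of the threshold, 118 kept direction and lost the threshold, and 3 reversed. The number of members called in chromaffin-like cells ranged from 5 to 10 with each library left out, with 5 without pelvic_2 and 6 of the 9 kept without pelvic_1. Between pelvic and sympathetic neurons, where 9 were called, it ranged from 3 (without the stellate or pelvic_2) to 11 (without the coeliac), and was 3 with no term for round. With P3-like neurons alone, a different set of pelvic neurons, it was 4, and *Sema4b* (0.29), *Plxna2* (-1.23) and *Plxnc1* (0.12) reversed. Members with a UMI in at least 5% of neurons were 23, and 12 after thinning to 4000 UMIs, in which fewer UMIs were counted per cell. Without the replicate block, 20 members were called between neurons and glia-like cells as with it, with *Sema6d* lost and *Plxna2* called. *Sema6d* was also lost with no filter on low counts, with glia chosen by score and in round 2 alone. The block changed no other call of that comparison. Pelvic and sympathetic libraries share fewer than 2 replicate numbers, so that no replicate block was fitted between them, and round was the blocking term. Leaving out a pelvic library could not be done for the pelvic clusters, as no residual degrees of freedom remain. Depth limits the members with few UMIs, *Sema3a* above all, and the classes with few cells.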

Other observations

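Among sympathetic neurons, small clusters with cholinergic markers were found in the lumbar (80 neurons) and the stellate library (57 neurons), and the levels of the members in them are given with no test. Median depth was 9419.5 UMIs per cholinergic-like neuron against 71156.5 in the other neurons of the lumbar library, and 43133 against 26267 in the stellate, so that the deeper cells carry most of the lumbar values. *Plxna2* was at 8.11 CPM in the lumbar and 7.40 in the stellate cholinergic-like neurons, against 3.03 and 2.16 in the other neurons of these libraries. *Sema3c* was at 2.28 and 3.70 (9 UMIs in each) against 10.5 and 12.3, and *Plxnc1* at 15.5 and 22.2 against 45.9 and 35.0. *Nrp1* was lower in these neurons of the lumbar library (65.6 against 217) and not of the stellate (116 against 103). *Nrp2*, which was high in most pelvic clusters, was at 48.1 and 44.4 against 66.2 and 39.4.

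Myelinating Schwann-like cells reached 20 cells in pelvic_1 (68) and the sphenopalatine (37) and were not tested. They had *Sema3b* at 278 and 230.0 CPM, *Sema6d* at 173 and 126, and *Sema4g*, which glia-like cells had at 4.75 to 7.18, at 29.7 and 49.6. *Sema5a* was at 44.6 and 31.6 in them, on 18 and 7 UMIs, against 2.01 to 6.38 in glia-like cells, beside fibroblast markers that summed to 3581 to 5090 CPM in these cells and to 1829 to 7664 in glia-like cells. Their *Sema3c* was at 19.8 in pelvic_1 and had 0 UMIs in the sphenopalatine.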
